A study of Danio rerio with 9 samples.

Results

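Zebrafish larvae that had been microinjected with sialylated bovine milk oligosaccharides (SBMO) were compared with larvae that had been microinjected with sialylated human milk oligosaccharides (SHMO), across all genes and functions. The comparison used 6 of the 9 RNA-seq libraries of the series, 3 SBMO pools and 3 SHMO pools, each made from several whole wild-type AB larvae collected at 5 days post fertilization. Both groups had received 4.6 nL of a 100 mmol/L solution of their mixture, in Danieau solution, which was placed in the yolk 4.7 h after fertilization. The remaining 3 libraries came from wild-type AB larvae of the same age that had not been microinjected (Ctrl). A saline-injected group is not analysed here, so the injection itself was shared by the SBMO and SHMO pools but not by the Ctrl pools, whose values are given beside the comparison only for reference. The members were the genes averaging 1 TPM or more over the 6 injected pools (TPM, the transcripts of a gene as a share of each library, scaled by length), which were 18757 of the 32520 genes listed, of which 27442 were above 0 in at least 1 of the 9 pools. A pool was the replicate, and the labels number the pools of each group 1 to 3 without saying whether they came from separate clutches, so p-values measure only the spread between these pools.

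Sialylated oligosaccharides are lactose-based milk sugars that carry sialic acid. In both mixtures the main components were 3′-sialyllactose and 6′-sialyllactose, which differ in the position at which sialic acid is linked to galactose. Of these components SBMO held mainly 3′-sialyllactose, and SHMO held relatively more 6′-sialyllactose. At the age of collection a zebrafish larva is finishing its yolk, its liver, intestine and pancreas have begun to work, and its eyes and brain already drive swimming. Larval tissues carry a light-entrained circadian clock in which CLOCK and BMAL proteins activate, and PER and CRY proteins repress, their common targets.

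The 6 injected libraries were correlated with each other, but unevenly. SHMO pool 1 correlated at 0.878, 0.892 and 0.934 with SBMO pools 1, 2 and 3. With the Ctrl pools it correlated at 0.928 to 0.932. Pearson's r of log2 TPM, across genes that are not independent replicates, lay between 0.941 and 0.975 within groups and between 0.878 and 0.961 for pairs of an SBMO and an SHMO pool. The first principal component of the 6 pools held 48.9% of the variance and placed all SBMO pools on the other side of 0 from all SHMO pools. SBMO pool 3 had the score nearest to 0 (6.56), and SHMO pool 1 had the score farthest from it (-70.1). The 10 most abundant genes took 16.6% to 18.7% of all TPM in each injected pool. TPM values keep no read counts, so the number of reads behind a value is unknown here. The authors report how many fragments were sequenced and kept after trimming, but these totals were not used here. Of the markers of 13 cell types looked for in these whole-larva pools, none was at 0 in all 6 injected pools, but some were barely above it. Only 5 of 11 neutrophil and macrophage markers and 4 of 6 heart markers reached the filter of 1 TPM. The lowest marker of each of these 2 sets averaged 0.017 and 0.018 TPM.

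Of the 18757 genes tested, 862 (4.6%) were called differentially expressed between SBMO and SHMO larvae. In the SBMO larvae 347 genes (1.85%) were higher and 515 (2.75%) were lower. Counts of called genes in the lists below are to be read beside these shares. The lists were chosen with earlier results of these data known, so a larger share in a list is a description and not a test of that list. A call required an adjusted p of at most 0.05 (limma, Benjamini-Hochberg over all genes tested) and a log2 fold change, log2(FC), of at least 0.58 in size, taken as SBMO minus SHMO on log2(scaled TPM + 0.1). This scale understates the change of genes at low TPM. The median log2(FC) over all genes was 0.019, and its quartiles were -0.26 and 0.25. Among the called genes, the median log2(FC) was 1.07 for those higher and -1.44 for those lower, and 39 of the higher and 112 of the lower genes differed at least 4-fold. In all 862 called genes the 3 SBMO pools did not overlap with the 3 SHMO pools, which was the case for 27.7% of all genes tested. With 3 pools a group, a call nearly requires such separation. Where pools of called genes are said below not to overlap, this adds no support to the call. Fold changes of single genes are given as log2(FC) ± standard error (SE). With the deposited TPM left without further scaling, 260 genes were higher and 617 lower, so the excess of lower genes was larger on that scale.

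The number of calls rested on few pools. It was 193 without SBMO pool 2, 261 without SHMO pool 1, 326 without SHMO pool 3, 534 without Ctrl pool 2, 549 without SHMO pool 2 and 1287 without SBMO pool 3. When the Ctrl pools were left out of the model, so that the spread was estimated from the 6 injected pools alone, 286 genes were called. The genes picked by the naming rule number 166, of which 144 were called. Of these 144, 55 kept their call when each of the 9 pools was left out in turn and 89 lost it in at least 1 of these fits. The direction of all 144 was the same under all alternatives that tested them. Since the SBMO and SHMO pools of called genes did not overlap, leaving out a pool could hardly turn a direction, so this does not measure stability.

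**Figure D1:**
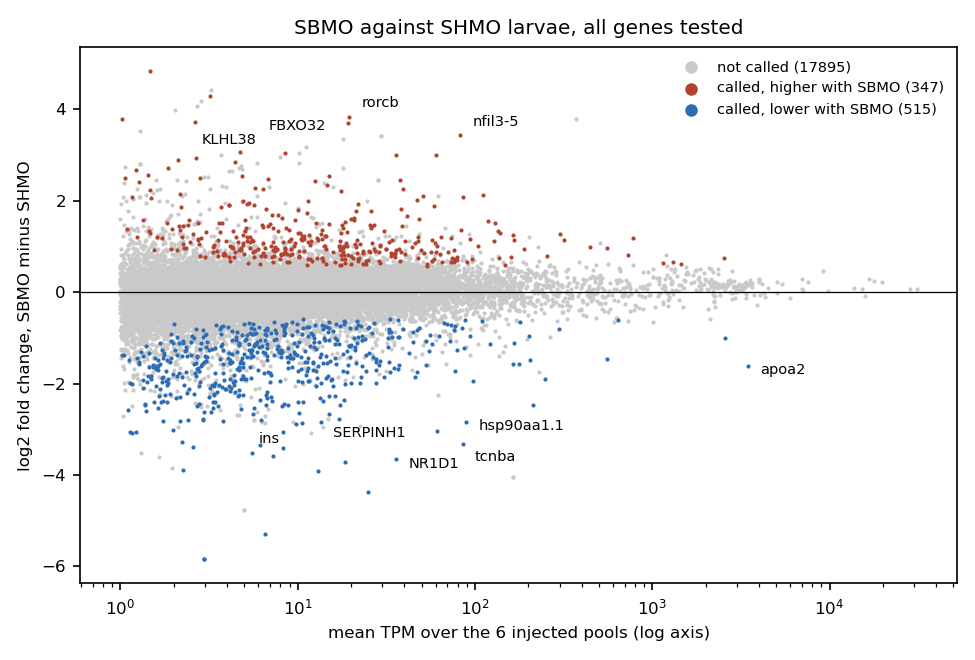
Log2 fold change of SBMO over SHMO larvae (vertical axis) against mean TPM over the 6 injected pools (horizontal log axis) for the 18757 genes tested, with 1 point a gene. The 347 genes called higher with SBMO reach above 4 and the 515 called lower reach below -5 on the log2 scale, and most genes of high abundance lie near 0.

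The Ctrl pools lay closer to one or the other injected group depending on the gene. Of the 347 genes higher in SBMO than in SHMO larvae, 220 (63.4%) had a Ctrl mean nearer to the SBMO mean than to the SHMO mean. Of the 515 genes lower in SBMO larvae, 160 (31.1%) did. Over all genes tested this share was 41.4%. The Ctrl mean lay outside the range between the SBMO and SHMO means, beyond SBMO, for 82 of the higher and 58 of the lower genes, and beyond SHMO for 25 of the higher and 156 of the lower genes.

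Genes of the circadian clock differed by some of the largest folds. In the list of clock core genes, 8 of 29 genes tested were higher and 5 were lower (median log2(FC) 0.50). The gene rorcb, a nuclear receptor of the ROR family that activates bmal genes, had 39.98, 44.4 and 24.6 TPM in the SBMO pools, against 2.19, 2.76 and 2.66 TPM in the SHMO pools and 35.4, 32.01 and 28.1 TPM in the Ctrl pools. Its SBMO pools were all more than 8-fold above its SHMO pools and close to the Ctrl pools (log2(FC) = 3.83 ± 0.23, adjusted p = 0.000197). Its relative rorca had 51.5, 64.97 and 51.6 TPM in the SBMO pools, against 21.1, 24.3 and 19.7 TPM in the SHMO pools and 92.4, 66.7 and 57.4 TPM in the Ctrl pools, and was also higher in SBMO larvae (log2(FC) = 1.45 ± 0.18, adjusted p = 0.00429). The cryptochrome cry3b had 129, 122.66 and 67.2 TPM in the SBMO pools, against 9.66, 15.4 and 15.9 TPM in the SHMO pools and 97.96, 87.01 and 76.6 TPM in the Ctrl pools. Its SBMO and SHMO pools did not overlap (log2(FC) = 3.01 ± 0.28, adjusted p = 0.00148). The other core genes called higher were cry4, cry3a, npas2 and both copies of BMAL1, with log2(FC) between 0.95 and 1.57.

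The 5 core genes called lower in SBMO larvae encode NR1D1, period proteins and CRY2. NR1D1, which encodes the repressor REV-ERB alpha and binds the same elements as ROR proteins, had 2.45, 4.06 and 11.1 TPM in the SBMO pools, against 56.6, 69.2 and 72.4 TPM in the SHMO pools and 4.08, 3.21 and 3.46 TPM in the Ctrl pools. It was 1 of the 12 largest falls, and SBMO pool 3 was the SBMO pool nearest to the SHMO pools (log2(FC) = -3.66 ± 0.42, adjusted p = 0.00266). For PER1 (ENSDARG00000056885), a period gene, the values were 0.76, 0.64 and 1.72 TPM in the SBMO pools, against 9.51, 12.4 and 12.03 TPM in the SHMO pools and 0.62, 0.71 and 0.37 TPM in the Ctrl pools. Again the SBMO pools were low and near the Ctrl pools (log2(FC) = -3.35 ± 0.34, adjusted p = 0.00192). The second copy of PER1 (ENSDARG00000012499, log2(FC) = -2.27), PER3 (-2.27) and CRY2 (-1.34) were called lower too.

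Clock outputs and light-induced genes moved in both directions as well. Of this list, 5 of 25 genes tested were higher and 12 were lower (median log2(FC) -0.40). The transcription repressors of D-box elements nfil3-5 and nfil3-6 were higher. Values for nfil3-5 were 187, 191 and 76.4 TPM in the SBMO pools, against 11.8, 14.8 and 14.2 TPM in the SHMO pools and 113, 114 and 79.98 TPM in the Ctrl pools. Those for nfil3-6 were 22.3, 18.5 and 32.4 TPM in the SBMO pools, against 4.67, 4.62 and 5.22 TPM in the SHMO pools and 37.5, 34.3 and 29.8 TPM in the Ctrl pools. Both genes were thus at Ctrl-like levels in SBMO larvae and lower in SHMO larvae (log2(FC) = 3.45 ± 0.33, adjusted p = 0.00155 for nfil3-5; log2(FC) = 2.36 ± 0.19, adjusted p = 0.00104 for nfil3-6). NFIL3 (log2(FC) = 1.53), lonrf1 (1.05) and aanat2 (1.52), which encodes the pineal enzyme of melatonin synthesis, were the other genes called higher.

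The activator of D-box elements dbpb had 2.57, 3.27 and 3.78 TPM in the SBMO pools, against 14.4, 20.4 and 20.02 TPM in the SHMO pools and 2.49, 1.95 and 1.51 TPM in the Ctrl pools, and was lower in SBMO larvae (log2(FC) = -2.39 ± 0.22, adjusted p = 0.00148). The CLOCK-interacting repressors ciarta and cipca were lower also. TPM of ciarta was 8.98, 9.56 and 13.6 TPM in the SBMO pools, against 41.3, 42.8 and 50.4 TPM in the SHMO pools and 8.63, 8.96 and 10.2 TPM in the Ctrl pools. For cipca it was 1.13, 1.57 and 1.69 TPM in the SBMO pools, against 7.48, 7.74 and 8.07 TPM in the SHMO pools and 1.14, 1 and 0.97 TPM in the Ctrl pools. In each of these genes the highest SBMO pool was well under the lowest SHMO pool (for ciarta, log2(FC) = -1.99 ± 0.19, adjusted p = 0.00148; for cipca, log2(FC) = -2.27 ± 0.20, adjusted p = 0.00131). Of the remaining 9 genes called lower, the relatives ciartb, dbpa, cipcb and tefa and the repressor BHLHE41 lay between -2.40 and -1.02, and the light-induced DNA repair and cryptochrome genes cry-dash, cry5, DDB2 and cpdp between -1.73 and -0.78. When any pool was left out, 10 to 17 of the 29 core genes and 14 to 17 of the 25 output genes were called. The hour at which each pool was collected is not given in the sources used here, and its part in these differences was not tested.

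**Figure D2:**
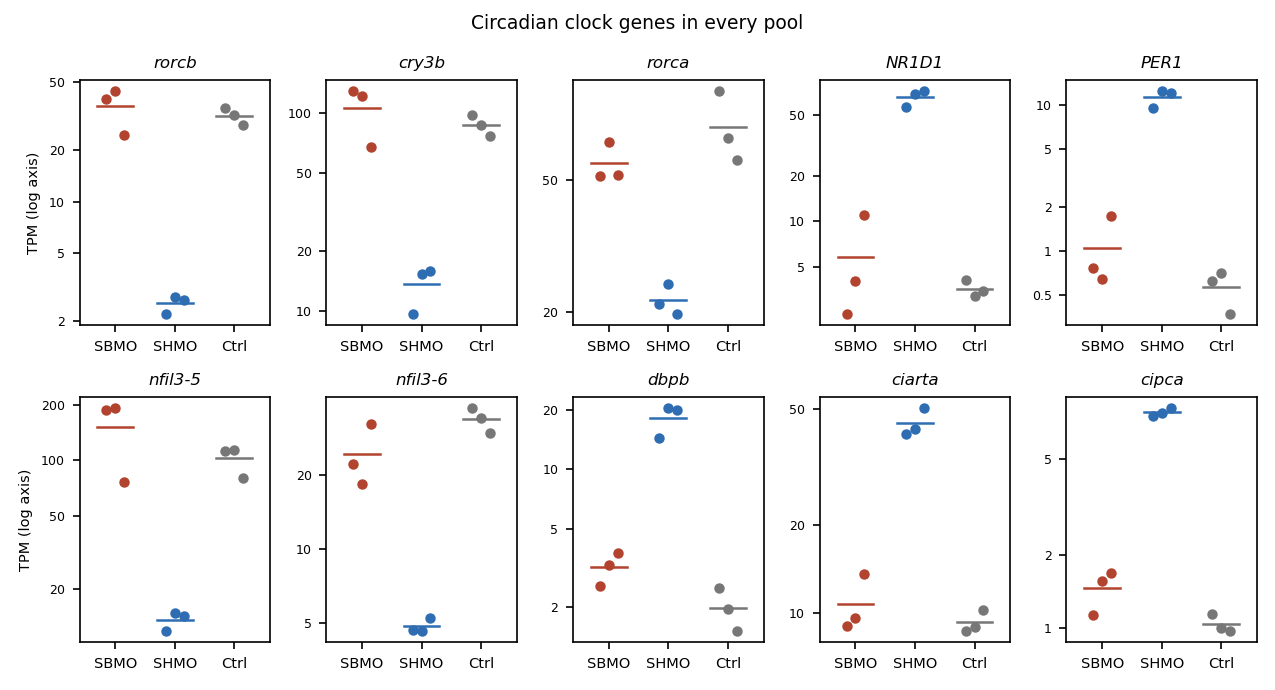
TPM (log axis) of 10 circadian clock genes in each pool of SBMO, SHMO and Ctrl larvae, with points for pools and lines for group means. The SBMO pools lie near the Ctrl pools and do not overlap with the SHMO pools, which are lowest for rorcb, cry3b, rorca, nfil3-5 and nfil3-6 and highest for NR1D1, PER1, dbpb, ciarta and cipca.

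Genes of the fasting response, whose transcription is driven by FOXO factors and glucocorticoids when nutrients are short, were higher in SBMO larvae. Of this list, which includes autophagy genes, 14 of 36 genes tested were higher and 0 were lower (median log2(FC) 0.63). FBXO32, the muscle ubiquitin ligase atrogin-1, had 14.3, 57.1 and 35.9 TPM in the SBMO pools, against 2.25, 2.04 and 3.14 TPM in the SHMO pools and 42.4, 38.6 and 63.2 TPM in the Ctrl pools. SBMO pool 1 was the lowest of the SBMO pools and still over 4-fold above the highest SHMO pool (log2(FC) = 3.69 ± 0.45, adjusted p = 0.00332). The muscle ubiquitin ligase trim63a (MuRF1) had 87.4, 203 and 122.99 TPM in the SBMO pools, against 34.2, 30.8 and 32.4 TPM in the SHMO pools and 120.2, 99.7 and 157 TPM in the Ctrl pools, with all SBMO pools higher (log2(FC) = 2.08 ± 0.30, adjusted p = 0.00655). FKBP5, a glucocorticoid-induced co-chaperone of HSP90, had 146, 218 and 214 TPM in the SBMO pools, against 75.1, 81.6 and 79.7 TPM in the SHMO pools and 55.4, 50.7 and 67.7 TPM in the Ctrl pools. Unlike the ligases, it was higher in SBMO larvae than in Ctrl larvae as well, by these values (log2(FC) = 1.35 ± 0.19, adjusted p = 0.00655, SBMO against SHMO). The other 11 genes called higher were KLF9, tsc22d3, trim63b, map1lc3cl, IRS2, PIK3IP1, eif4ebp3 with EIF4EBP3, MAP1LC3B, SESN1 and BNIP3, with log2(FC) between 0.60 and 1.67.

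KLHL38 and CALCOCO1 (ENSDARG00000016391) were 2 of the 12 largest rises. KLHL38, a kelch-like gene of skeletal muscle, had 10.4, 20.8 and 14.6 TPM in the SBMO pools, against 1.63, 1.73 and 2.02 TPM in the SHMO pools and 20.6, 15.1 and 19.9 TPM in the Ctrl pools (log2(FC) = 3.05 ± 0.25, adjusted p = 0.00104). CALCOCO1, which encodes an autophagy receptor, had 6.48, 10.7 and 6.34 TPM in the SBMO pools, against 1.17, 0.92 and 1.01 TPM in the SHMO pools and 13.4, 11.9 and 15.8 TPM in the Ctrl pools (log2(FC) = 2.85 ± 0.24, adjusted p = 0.00104). Both had SHMO pools at 2.02 TPM or less and SBMO pools at 6.34 TPM or more. The muscle gene ASB15 (ENSDARG00000045863), which encodes a subunit of ubiquitin ligases, had 1.89, 3.26 and 0.89 TPM in the SBMO pools, against 0.06, 0 and 0.07 TPM in the SHMO pools and 1.24, 0.98 and 1.18 TPM in the Ctrl pools (log2(FC) = 3.79 ± 0.50, adjusted p = 0.00487). With SHMO values near 0, it passed the filter only through its SBMO pools. The size of its difference is uncertain, as its log2(FC) lay between 1.48 and 5.6 under the alternatives. For the fasting list the 14 calls became 4 without SBMO pool 2 or SHMO pool 1, 5 without SHMO pool 2, 6 without SHMO pool 3 or Ctrl pool 2 and 7 without Ctrl pool 1, and its median log2(FC) lay between 0.54 and 0.64 when any pool was left out.

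Genes of amino acid shortage, which the factor ATF4 induces, were mixed. In this list 5 of 27 genes tested were higher and 2 were lower (median log2(FC) 0.14). SLC3A2, the heavy chain of amino acid transporters, had 108, 134 and 114 TPM in the SBMO pools, against 46.1, 49.1 and 50.96 TPM in the SHMO pools and 87.03, 70.3 and 94.8 TPM in the Ctrl pools (log2(FC) = 1.36 ± 0.16, adjusted p = 0.00266). CHAC1, which degrades glutathione, had 311, 496 and 462 TPM in the SBMO pools, against 191, 175 and 182 TPM in the SHMO pools and 505, 420.3 and 501 TPM in the Ctrl pools (log2(FC) = 1.27 ± 0.18, adjusted p = 0.00690). Both were above their SHMO pools in all SBMO pools. PSAT1, an enzyme of serine synthesis, was higher by a log2(FC) of 0.82. The mitochondrial pck2, which makes phosphoenolpyruvate, was lower (log2(FC) = -1.98 ± 0.41, adjusted p = 0.0259). For this list the 7 calls became 2 without SBMO pool 2, SHMO pool 1 or SHMO pool 3 and 4 without SHMO pool 2.

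Part of the cytosolic chaperones, which fold proteins and are often induced by heat shock factors, was lower in SBMO larvae. Of the list of chaperones and heat shock factors, 15 of 61 genes tested were lower and 0 were higher (median log2(FC) -0.28). The muscle chaperone gene hsp90aa1.1 had 17.3, 15.04 and 32.2 TPM in the SBMO pools, against 189, 148 and 133 TPM in the SHMO pools and 23.5, 18.8 and 34.5 TPM in the Ctrl pools. Its highest SBMO pool was about 4-fold below its lowest SHMO pool (log2(FC) = -2.84 ± 0.29, adjusted p = 0.00192). HSF2, a heat shock transcription factor, had 8.52, 10.3 and 14.1 TPM in the SBMO pools, against 34.9, 38.8 and 39.9 TPM in the SHMO pools and 11.3, 9.33 and 8.27 TPM in the Ctrl pools (log2(FC) = -1.72 ± 0.19, adjusted p = 0.00266). The inducible hsp70l had 6.79, 3.94 and 5.19 TPM in the SBMO pools, against 16.7, 19.7 and 16.5 TPM in the SHMO pools and 8.77, 7.41 and 5.99 TPM in the Ctrl pools (log2(FC) = -1.66 ± 0.19, adjusted p = 0.00266). In all 3 genes the Ctrl pools lay near the SBMO pools. UNC45B, a myosin chaperone that works with HSP90, was lower by a log2(FC) of -1.95, HSP90AA1 (ENSDARG00000024746) by -1.26, and the other called genes (hspa1b, hsp70.3, hsp70.1, HSPA4, ptges3l, dnaja1, SMYD1, dnajb1a, dnajb1b and HSPB2) lay between -2.04 and -0.71. The hsp70 genes are close copies, so reads may have been shared among them. Among these chaperones the 15 calls became 3 without SBMO pool 2, 6 without SHMO pool 1, 7 without SHMO pool 2, 8 without SHMO pool 3 and 9 without SBMO pool 1.

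Collagen chaperones and mitochondrial chaperones showed the same direction. SERPINH1 (ENSDARG00000019949), the collagen chaperone HSP47, had 9.03, 6.2 and 30.9 TPM in the SBMO pools, against 131, 96.2 and 92.9 TPM in the SHMO pools and 11.8, 6.21 and 8.16 TPM in the Ctrl pools (log2(FC) = -3.04 ± 0.46, adjusted p = 0.00848). SBMO pool 3 was the highest SBMO pool and remained below the lowest SHMO pool. The second copy of SERPINH1 (ENSDARG00000075954) had a log2(FC) of -1.31, and the disulfide isomerase PDIA5 had -0.93. Among genes of endoplasmic reticulum chaperones and the unfolded protein response, 1 of 41 genes tested was higher and 4 were lower (median log2(FC) -0.28), and the higher gene was the factor atf4a (0.60). For this list the 5 calls became 1 without SBMO pool 1, SBMO pool 2, SHMO pool 1 or SHMO pool 3 and 3 without Ctrl pool 2. Among the TRiC chaperonin and mitochondrial chaperones, 2 of 23 genes tested were lower and 0 were higher (median log2(FC) -0.22). The partners HSPD1 and HSPE1 of the mitochondrial chaperonin were the called genes, with log2(FC) of -1.28 and -0.96, and the 2 calls became 0 without SBMO pool 2 and 1 without SHMO pool 1, SHMO pool 2 or SHMO pool 3. Of proteasome subunits, which degrade ubiquitinated proteins, 0 of 45 genes tested were called by limma (3 at an unadjusted p under 0.05), with a median log2(FC) of -0.0075. The most abundant, PSMB4, had 136, 123.29 and 129.96 TPM in the SBMO pools, against 127, 139.6 and 126 TPM in the SHMO pools and 127, 108 and 140.2 TPM in the Ctrl pools, and its groups overlapped (log2(FC) = 0.07). PSMB7 had a log2(FC) of -0.06.

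Enzymes of cholesterol synthesis were lower in SBMO larvae. In this list 11 of 22 genes tested were lower and 0 were higher (median log2(FC) -1.17). LSS, the lanosterol synthase, had 2.05, 0.54 and 1.5 TPM in the SBMO pools, against 11.4, 6.79 and 6.53 TPM in the SHMO pools and 2.83, 1.91 and 2.55 TPM in the Ctrl pools (log2(FC) = -2.56 ± 0.38, adjusted p = 0.00757). MSMO1, which removes methyl groups from lanosterol products, had 14.8, 8.06 and 14.2 TPM in the SBMO pools, against 58.5, 31.4 and 38.3 TPM in the SHMO pools and 22.6, 15.6 and 22.1 TPM in the Ctrl pools (log2(FC) = -1.70 ± 0.26, adjusted p = 0.00854). DHCR7, the last enzyme of the pathway, had 5.25, 3.87 and 5.24 TPM in the SBMO pools, against 18.8, 12.6 and 10.9 TPM in the SHMO pools and 8.89, 6.99 and 5.47 TPM in the Ctrl pools (log2(FC) = -1.43 ± 0.22, adjusted p = 0.00892). In each, SHMO pool 1 was the highest pool, and the Ctrl pools lay near the SBMO pools or between them and the SHMO pools. Other called enzymes included SQLE, CYP51A1, HMGCS1, SC5D, MVD, FDFT1 and TM7SF2, with log2(FC) between -2.30 and -0.81. In the cholesterol list the 11 calls became 5 without SBMO pool 2 or SHMO pool 1 and 7 without SHMO pool 3. Of genes of sterol uptake, transport and control by SREBP factors, 0 of 17 genes tested were called by limma (3 at an unadjusted p under 0.05), with a median log2(FC) of -0.0025. NPC2, which exports cholesterol from lysosomes, had a log2(FC) of -0.02, and MYLIP (ENSDARG00000008859), which degrades the LDL receptor, had 0.47 with an adjusted p of 0.0814.

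**Figure D3:**
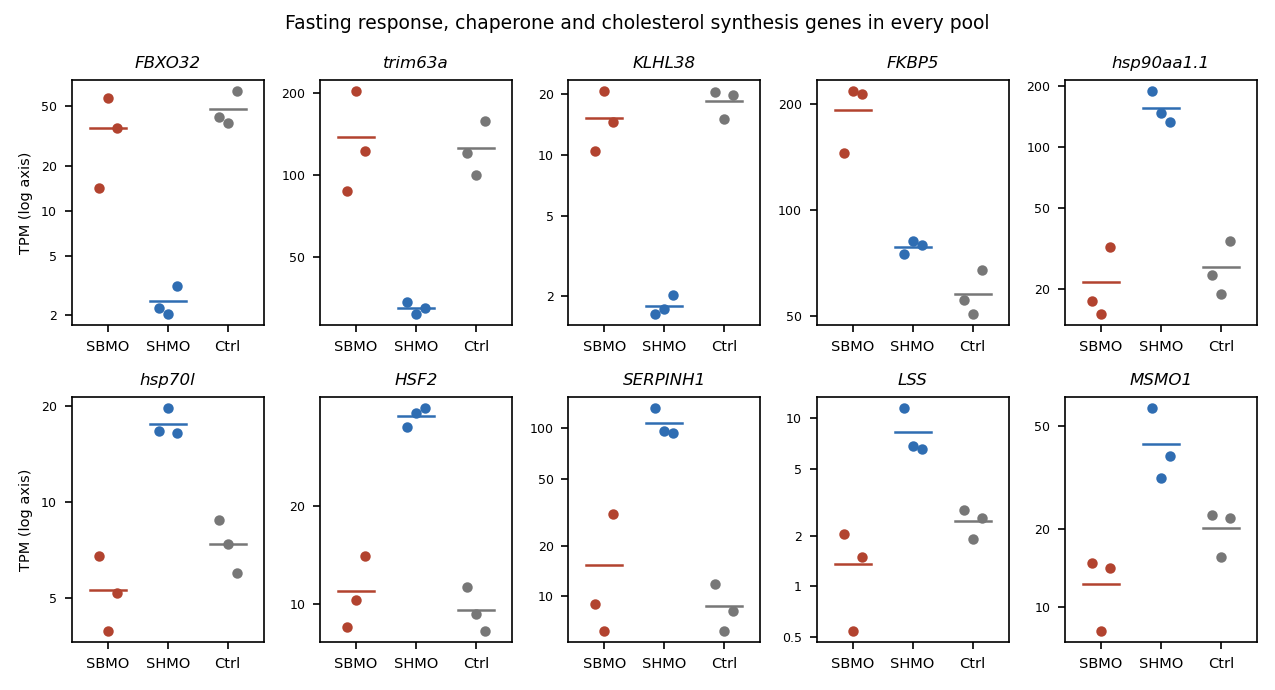
TPM (log axis) of genes in each pool of SBMO, SHMO and Ctrl larvae, with lines for group means. Shown are FBXO32, trim63a and FKBP5 of the fasting list, the muscle gene KLHL38 and the heat shock factor HSF2. The chaperone genes hsp90aa1.1, hsp70l and SERPINH1 and the cholesterol enzymes LSS and MSMO1 are shown as well. FBXO32, trim63a, KLHL38 and FKBP5 are higher and the other genes are lower in SBMO than in SHMO pools, with no overlap between these groups.

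Other genes of fat metabolism were called in both directions. Among genes of fatty acid and triglyceride synthesis, 3 of 36 genes tested were higher and 1 was lower (median log2(FC) -0.093). The genes called higher were LPIN1, a phosphatidate phosphatase (0.87), the desaturase scdb (0.77) and the elongase ELOVL4 (ENSDARG00000027495, 0.68). DGAT2, which makes triglycerides, had 0.42, 0.62 and 1.53 TPM in the SBMO pools, against 12.02, 2.61 and 3.19 TPM in the SHMO pools and 8.93, 11.4 and 11.6 TPM in the Ctrl pools (log2(FC) = -2.41 ± 0.55, adjusted p = 0.0379). Among those of fatty acid oxidation and ketone metabolism, 5 of 48 genes tested were lower and 0 were higher (median log2(FC) -0.29). The 3 with the smallest adjusted p were the thioesterase acot16 (-2.54), the ketone enzyme oxct1b (-1.94) and the peroxisomal EHHADH (-1.08). Without SHMO pool 1, neither DGAT2 nor any of the oxidation genes was called. For the synthesis list the 4 calls became 0 without SBMO pool 2 or SHMO pool 3, 1 without SHMO pool 1, Ctrl pool 1 or Ctrl pool 2 and 2 without SHMO pool 2 or Ctrl pool 3. For the oxidation list the 5 calls became 0 without SBMO pool 2 or SHMO pool 1, 1 without SHMO pool 3, 2 without Ctrl pool 2 and 3 without SHMO pool 2 or Ctrl pool 1.

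Genes of the intestine were lower in part. Among intestinal epithelium genes, 14 of 36 genes tested were lower and 0 were higher (median log2(FC) -1.51). SLC6A19 (ENSDARG00000091560), the brush border carrier of neutral amino acids, had 0.64, 0.59 and 0.9 TPM in the SBMO pools, against 12.7, 4.11 and 3.87 TPM in the SHMO pools and 8.09, 6.05 and 6.1 TPM in the Ctrl pools (log2(FC) = -2.82 ± 0.38, adjusted p = 0.00550). ANPEP (ENSDARG00000103878), a brush border peptidase, had 3.35, 2.07 and 5.52 TPM in the SBMO pools, against 46.2, 15.5 and 17.8 TPM in the SHMO pools and 28.9, 22.8 and 30.7 TPM in the Ctrl pools (log2(FC) = -2.67 ± 0.41, adjusted p = 0.00829). For AGR2, a goblet cell disulfide isomerase, the values were 12.2, 7.77 and 19.6 TPM in the SBMO pools, against 63.5, 39.6 and 42.6 TPM in the SHMO pools and 16.3, 14.01 and 22.9 TPM in the Ctrl pools (log2(FC) = -1.85 ± 0.31, adjusted p = 0.0117). SHMO pool 1 was the highest SHMO pool in each, and the SBMO pools did not reach the lowest SHMO pool. Other called members were the peptide carrier SLC15A1, the chloride exchanger SLC26A3, villin (VIL1), dpp4, RBP2, TM4SF5, the meprins mep1a.1 and mep1a.2 and the apolipoproteins apoa4b.1, apoa4b.2 and apoa1b, between -2.62 and -1.01. Among intestinal genes the 14 calls became 5 without SBMO pool 2, 6 without SHMO pool 3, 7 without SHMO pool 1, Ctrl pool 1 or Ctrl pool 2 and 9 without SBMO pool 1 or Ctrl pool 3.

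Part of the liver genes was lower as well. Of liver plasma proteins and coagulation factors, 16 of 54 genes tested were lower and 0 were higher (median log2(FC) -1.03). PROC (ENSDARG00000093079), an anticoagulant protease, had 0.48, 0.45 and 0.94 TPM in the SBMO pools, against 7.85, 3.5 and 4.33 TPM in the SHMO pools and 3.39, 3.93 and 5.02 TPM in the Ctrl pools (log2(FC) = -2.78 ± 0.34, adjusted p = 0.00358). The clotting factor F7 was lower in both copies (-1.64 for ENSDARG00000034862; -1.53 for ENSDARG00000075827). Hemopexin, hpxa, which binds free heme, had 0.24, 1.8 and 1.45 TPM in the SBMO pools, against 18.4, 8.22 and 13.3 TPM in the SHMO pools and 1.14, 1.31 and 2.17 TPM in the Ctrl pools (log2(FC) = -3.58 ± 0.60, adjusted p = 0.0122). For hpxa the Ctrl pools were as low as the SBMO pools, whereas for PROC they were near the SHMO pools. The other called genes, among them antithrombin (SERPINC1), prothrombin (f2), transferrin (tfa), vitronectin (VTN) and the tryptophan dioxygenase TDO2, lay between -2.35 and -1.43. Among liver genes the 16 calls became 3 without SBMO pool 2, 5 without SHMO pool 1, 7 without SHMO pool 3, 8 without SBMO pool 1, 10 without Ctrl pool 2 and 26 without SBMO pool 3.

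Complement genes and apolipoproteins, both made mainly by the liver, intestine and yolk layer, were lower in part. Of complement and acute phase genes, 6 of 31 genes tested were lower and 0 were higher (median log2(FC) -1.25). The complement component c3b.1 had 0.9, 0.99 and 1.75 TPM in the SBMO pools, against 10.9, 3.53 and 4.45 TPM in the SHMO pools and 3.61, 4.66 and 4.92 TPM in the Ctrl pools (log2(FC) = -2.08 ± 0.39, adjusted p = 0.0206), and the regulators cfh and cfhl2 had log2(FC) of -2.80 and -2.29. Of apolipoproteins and lipoprotein assembly genes, 7 of 29 genes tested were lower and 0 were higher (median log2(FC) -0.91). The abundant apoa2 had 1036, 1469.6 and 2568 TPM in the SBMO pools, against 6799, 3791 and 5169 TPM in the SHMO pools and 3310.2, 3541 and 4977 TPM in the Ctrl pools (log2(FC) = -1.61 ± 0.32, adjusted p = 0.0251). For apoa1b, the main high density apolipoprotein, the values were 1267, 1799 and 1885 TPM in the SBMO pools, against 4120.1, 2973 and 3404 TPM in the SHMO pools and 2791, 2594 and 2664 TPM in the Ctrl pools (log2(FC) = -1.01 ± 0.18, adjusted p = 0.0152). The less abundant apoc4 had a log2(FC) of -2.48. For complement the 6 calls became 0 without SBMO pool 2, 1 without SHMO pool 3, 2 without SBMO pool 1 or SHMO pool 1, 3 without Ctrl pool 1 or Ctrl pool 2 and 12 without SBMO pool 3, and for apolipoproteins the 7 calls became 0 without SHMO pool 1 or SHMO pool 3, 2 without SBMO pool 2, 3 without Ctrl pool 1, Ctrl pool 2 or Ctrl pool 3 and 4 without SBMO pool 1. The vitellogenins, yolk protein genes of adult females, were not tested because none of the 8 listed reached the filter.

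Exocrine pancreas genes varied widely within the injected groups. Of exocrine pancreas genes 0 of 24 genes tested were called by limma (0 at an unadjusted p under 0.05), with a median log2(FC) of -0.98 that became 0.15 without SHMO pool 1. The elastase CELA1 had 13.4, 29.4 and 118 TPM in the SBMO pools, against 578, 47.3 and 38.1 TPM in the SHMO pools and 717, 849 and 1121 TPM in the Ctrl pools, and the trypsinogen prss1 had 21.6, 34.7 and 145 TPM in the SBMO pools, against 530.4, 46.2 and 41.2 TPM in the SHMO pools and 836, 1077 and 1556 TPM in the Ctrl pools. Their SBMO and SHMO pools overlapped and all were below the Ctrl pools (log2(FC) = -1.40, adjusted p = 0.440 for CELA1; -0.99, adjusted p = 0.574 for prss1). In the endocrine pancreas list 1 of 21 genes tested was higher and 2 were lower (median log2(FC) 0.15). Insulin, ins, had 0.91, 1.42 and 2.73 TPM in the SBMO pools, against 39.2, 9.31 and 5.49 TPM in the SHMO pools and 30.3, 43.6 and 62.7 TPM in the Ctrl pools (log2(FC) = -2.88 ± 0.64, adjusted p = 0.0342). The somatostatin gene sst2 had 0.29, 0.25 and 2.59 TPM in the SBMO pools, against 18.5, 6.6 and 5.07 TPM in the SHMO pools and 21.1, 21.2 and 37.3 TPM in the Ctrl pools (log2(FC) = -3.52 ± 0.72, adjusted p = 0.0259). In both, the SBMO pools were lowest, the SHMO pools in between and the Ctrl pools mostly highest. NEUROD1, a transcription factor of neurons and endocrine cells, went the other way (log2(FC) = 1.51 ± 0.22, adjusted p = 0.00705). For the endocrine list the 3 calls became 1 without SBMO pool 1, SBMO pool 2 or SHMO pool 1. With 1 pool left out, ins lost its call in 6 and sst2 in 4 of the 9 fits. In pools of whole larvae, fewer cells of a type and less RNA per cell cannot be told apart.

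Whole lists of cell type markers were also summed in each pool. These markers include called genes given above, such as apoa2, tfa, villin and apoa1b, so the sums are not separate evidence. The summed TPM of 7 hepatocyte markers was 1943 to 4188 TPM in the SBMO pools, against 5823 to 10008 TPM in the SHMO pools and 5722 to 8156 TPM in the Ctrl pools, and 2 of the 7 were called lower. The sum of 8 enterocyte markers was 92.1 to 197 TPM in the SBMO pools, against 294 to 1110.4 TPM in the SHMO pools and 747 to 1341 TPM in the Ctrl pools, with 4 of the 7 tested called lower. For both cell types the SBMO and SHMO sums did not overlap, nor did they for 5 lipoprotein genes of the yolk layer (1795 to 2487 TPM in the SBMO pools, against 3586 to 5482 TPM in the SHMO pools and 3909 to 4332 TPM in the Ctrl pools) and for cartilage markers. For 5 acinar cell markers the sums of the injected groups overlapped, at 55.9 to 252 TPM in the SBMO pools, against 68.1 to 1074 TPM in the SHMO pools and 2071 to 3799 TPM in the Ctrl pools. The 8 skeletal muscle markers summed to 41518 to 54832 TPM in the SBMO pools, against 46719 to 49141 TPM in the SHMO pools and 43901 to 52225 TPM in the Ctrl pools, and the 9 neuron markers to 1868 to 2384 TPM in the SBMO pools, against 1378 to 2101 TPM in the SHMO pools and 954 to 1437 TPM in the Ctrl pools. Of the acinar, muscle and neuron markers, 0 were called. The part of cell composition in the liver and intestine results was not tested.

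**Figure D4:**
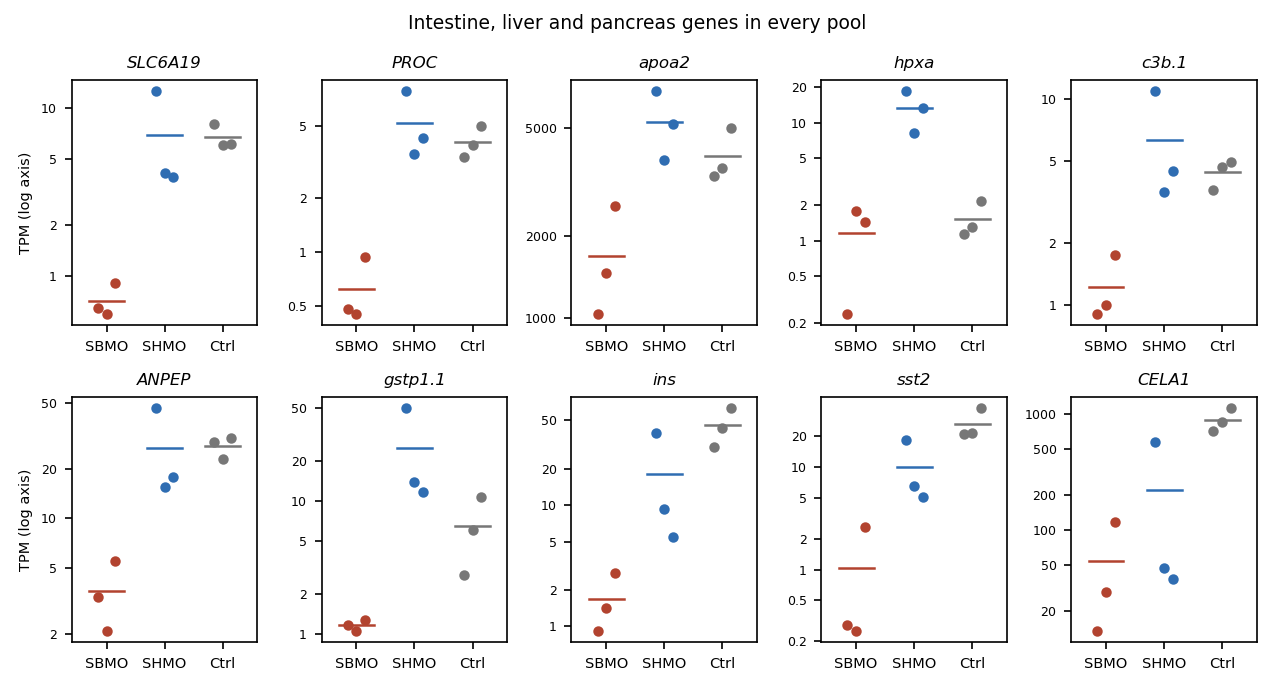
TPM (log axis) of 10 genes of intestine, liver and pancreas, among them gstp1.1, in each pool of SBMO, SHMO and Ctrl larvae, with lines for group means. All except CELA1 are lower in the SBMO pools without overlap with the SHMO pools, and SHMO pool 1, the leftmost SHMO point, is the highest SHMO pool in each panel.

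Some enzymes of detoxification were lower. Among cytochrome P450 genes of families 1 to 4 and AHR genes, 6 of 40 genes tested were lower and 0 were higher (median log2(FC) -0.67). The gene cyp2k6 had 0.18, 1.37 and 4.99 TPM in the SBMO pools, against 15.7, 12.1 and 15.3 TPM in the SHMO pools and 2.32, 1.91 and 3 TPM in the Ctrl pools (log2(FC) = -3.40 ± 0.79, adjusted p = 0.0400), cyp2x9 had a log2(FC) of -2.61, CYP4V2 (ENSDARG00000062132), a fatty acid hydroxylase, -1.61, and CYP2R1, a vitamin D hydroxylase, -1.40. With 1 pool left out, cyp2k6 lost its call in 7, CYP4V2 and CYP2R1 in 3 each and cyp2x9 in 2 of the 9 fits. Of glutathione and redox enzymes, 1 of 62 genes tested was higher and 5 were lower (median log2(FC) -0.26). The glutathione transferase gstp1.1 had 1.18, 1.05 and 1.27 TPM in the SBMO pools, against 49.5, 13.9 and 11.6 TPM in the SHMO pools and 2.8, 6.08 and 10.7 TPM in the Ctrl pools (log2(FC) = -3.91 ± 0.57, adjusted p = 0.00683). Its SBMO pools were the most alike, and SHMO pool 1 was more than 3-fold above the other SHMO pools. The glutathione hydrolase ggt1b (-2.52) and the thioredoxin reductase TXNRD3 (-0.87) were lower, and the transferase GSTM3 (ENSDARG00000029473) was higher (2.16). For P450 genes the 6 calls became 0 without SBMO pool 2 or SHMO pool 1 and 2 without SHMO pool 3, and for redox genes the 6 calls became 1 without SBMO pool 2, SHMO pool 1, SHMO pool 2 or SHMO pool 3, 2 without Ctrl pool 1, 3 without SBMO pool 1 or Ctrl pool 2 and 12 without SBMO pool 3.

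Some heme and red cell genes were lower, at 11.1% and 13.3% of their lists, beside 2.75% of all genes tested. Of genes of heme synthesis and degradation, 2 of 18 genes tested were lower and 0 were higher (median log2(FC) -0.58), namely alas2, the erythroid first enzyme of heme synthesis (log2(FC) = -1.36 ± 0.23, adjusted p = 0.0127), and ALAS1, its counterpart in other tissues (log2(FC) = -1.12 ± 0.27, adjusted p = 0.0462). In the larval globin list, which held red cell genes as well, 2 of 15 genes tested were lower and 0 were higher (median log2(FC) -0.45): alas2 and the transferrin receptor tfr1a (-2.23). No globin itself was called. For heme genes the 2 calls became 0 without SBMO pool 2, 1 without SBMO pool 1, SHMO pool 1, SHMO pool 2, SHMO pool 3, Ctrl pool 1 or Ctrl pool 2 and 4 without SBMO pool 3, and for the globin list the 2 calls became 0 without SBMO pool 2 and 1 without SBMO pool 1, SHMO pool 1, SHMO pool 3, Ctrl pool 1, Ctrl pool 2 or Ctrl pool 3.

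Part of the replication genes was lower in SBMO larvae. The MCM proteins form the helicase that opens replication origins. Among MCM helicase and origin genes, 5 of 25 genes tested were lower and 0 were higher (median log2(FC) -0.39). MCM3 had 10.7, 6.84 and 13.8 TPM in the SBMO pools, against 26.9, 23.6 and 20.5 TPM in the SHMO pools and 10.4, 7.92 and 8.01 TPM in the Ctrl pools (log2(FC) = -1.14 ± 0.21, adjusted p = 0.0196), and MCM6 had 11.7, 7.56 and 17.6 TPM in the SBMO pools, against 34.6, 28.7 and 25.8 TPM in the SHMO pools and 11.9, 10.5 and 10.2 TPM in the Ctrl pools (log2(FC) = -1.26 ± 0.24, adjusted p = 0.0213). For MCM4 the values were 19.02, 12.8 and 22.1 TPM in the SBMO pools, against 35.1, 36.2 and 32.6 TPM in the SHMO pools and 18.3, 14.04 and 15.7 TPM in the Ctrl pools (log2(FC) = -0.89 ± 0.17, adjusted p = 0.0213). The SHMO pools were the highest in all 3 genes, and the Ctrl pools lay within the range of the SBMO pools. MCM2 and MCM5 were the other called members (-1.01 and -0.97). In this list the 5 calls became 0 without SBMO pool 2 or SHMO pool 1, 1 without SHMO pool 3 and 2 without SHMO pool 2.

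Other growth genes showed fewer calls. Among replication polymerases and S-phase regulators, 1 of 53 genes tested was lower and 0 were higher (median log2(FC) -0.26), and the called gene was the transcription factor E2F1 (-1.40). Of mitosis and cyclin genes, 1 of 48 genes tested was higher and 2 were lower (median log2(FC) 0.14): CDCA7 (-1.02) and its relative cdca7b (-0.77) were lower, and the kinesin cenpe (1.07) was higher. For mitosis genes the 3 calls became 0 without SHMO pool 1 and 1 without SBMO pool 2, SHMO pool 2 or SHMO pool 3. Of p53 targets, 2 of 22 genes tested were higher and 1 was lower (median log2(FC) 0.18): the cell cycle inhibitor cdkn1a had 2.72, 5.38 and 7.73 TPM in the SBMO pools, against 20.4, 17.8 and 14.1 TPM in the SHMO pools and 4.18, 2.04 and 3.56 TPM in the Ctrl pools (log2(FC) = -1.72 ± 0.36, adjusted p = 0.0265), while SESN1 (0.67) and GADD45A (ENSDARG00000104571, 0.75) were higher. For p53 targets the 3 calls became 0 without SHMO pool 1, SHMO pool 2 or SHMO pool 3 and 1 without SBMO pool 2, Ctrl pool 1 or Ctrl pool 2. Of cytosolic ribosomal proteins, 0 of 82 genes tested were called by limma (4 at an unadjusted p under 0.05), with a median log2(FC) of 0.16. RPS29 and RPS2, the most abundant, had log2(FC) of 0.19 and -0.02. Of ribosome biogenesis genes, 1 of 64 genes tested was lower and 0 were higher (median log2(FC) -0.29), the nucleolar npm1a (-0.74). E2F1 lost its call in 8 and npm1a in 7 of the 9 fits with 1 pool left out. Of aminoacyl-tRNA synthetases, 2 of 22 genes tested were lower and 0 were higher (median log2(FC) -0.17), RARS1 (-0.68) and QARS1 (-0.73). For the synthetases the 2 calls became 0 without SBMO pool 2, SHMO pool 1, SHMO pool 2, SHMO pool 3, Ctrl pool 1 or Ctrl pool 2 and 1 without SBMO pool 1.

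Some enzymes of glycolysis and gluconeogenesis were lower in SBMO larvae. Of genes of glycolysis and gluconeogenesis, 7 of 41 genes tested were lower and 0 were higher (median log2(FC) -0.23). The mutase pgam1a had 36.5, 28.2 and 39.1 TPM in the SBMO pools, against 87.6, 75.1 and 77.97 TPM in the SHMO pools and 45.1, 51 and 62.4 TPM in the Ctrl pools (log2(FC) = -1.14 ± 0.17, adjusted p = 0.00805), the fructose bisphosphatase FBP2 had 10.6, 8.51 and 12.96 TPM in the SBMO pools, against 29.3, 28.03 and 24.5 TPM in the SHMO pools and 18.7, 22.4 and 28.1 TPM in the Ctrl pools (log2(FC) = -1.28 ± 0.20, adjusted p = 0.00920), and the isomerase TPI1 (ENSDARG00000040988) had a log2(FC) of -0.81. All SBMO pools were below all SHMO pools in these genes. LDHA, ALDOA, fbp1b and pck2 were the other called members, between -1.98 and -0.60. Among these genes the 7 calls became 2 without SHMO pool 1 or SHMO pool 3, 3 without SBMO pool 2 and 4 without SBMO pool 1. Of hypoxia and HIF targets, 3 of 34 genes tested were higher and 1 was lower (median log2(FC) -0.052). NDRG1 (ENSDARG00000010420), a stress-induced gene, had 76.6, 126 and 72.8 TPM in the SBMO pools, against 19.6, 27.1 and 30.6 TPM in the SHMO pools and 43.8, 33.4 and 32.96 TPM in the Ctrl pools (log2(FC) = 1.89 ± 0.25, adjusted p = 0.00531), its second copy (ENSDARG00000032849) had a log2(FC) of 0.61, the mitophagy receptor BNIP3 had 0.60, and P4HA1, a collagen prolyl hydroxylase, had -1.57. For these targets the 4 calls became 1 without SBMO pool 2, SHMO pool 1, SHMO pool 2 or SHMO pool 3 and 2 without Ctrl pool 2. Of the nuclear subunits of oxidative phosphorylation, 2 of 94 genes tested were higher and 0 were lower (median log2(FC) -0.097): COX4I2, an isoform induced at low oxygen in mammals (log2(FC) = 1.02 ± 0.19, adjusted p = 0.0181), and SDHD (ENSDARG00000055712, 1.86). SDHD lost its call in 3 and COX4I2 in 2 of the 9 fits with 1 pool left out. Of genes of mitochondrial DNA, 0 of 13 genes tested were called by limma (3 at an unadjusted p under 0.05), with a median log2(FC) of 0.024, whose sign turned without further scaling (-0.061). MT-CO1 and MT-CO2 had log2(FC) of 0.25 and 0.23.

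Some genes of neuropeptides and pituitary hormones were higher in SBMO larvae. In this list 11 of 50 genes tested were higher and 1 was lower (median log2(FC) 0.48). A copy of CARTPT (ENSDARG00000070930), which encodes an appetite-suppressing peptide, had 2.99, 2.56 and 1.96 TPM in the SBMO pools, against 0.39, 0.29 and 0.4 TPM in the SHMO pools and 2.8, 2.13 and 3.27 TPM in the Ctrl pools (log2(FC) = 2.56 ± 0.26, adjusted p = 0.00192). Another copy (ENSDARG00000035852) had 13.3, 17.1 and 13.4 TPM in the SBMO pools, against 5.4, 8.87 and 5.73 TPM in the SHMO pools and 13.6, 13.1 and 11.3 TPM in the Ctrl pools (log2(FC) = 1.23 ± 0.21, adjusted p = 0.0140). The midbrain gonadotropin-releasing hormone gnrh2 had 7.84, 7.24 and 7.25 TPM in the SBMO pools, against 2.89, 4.19 and 3.59 TPM in the SHMO pools and 7.22, 7.47 and 6.65 TPM in the Ctrl pools (log2(FC) = 1.14 ± 0.17, adjusted p = 0.00690). All 3 were at Ctrl-like levels in SBMO larvae and lower in SHMO larvae. The list as a whole differed from them, with Ctrl nearer to SHMO. Its median log2 difference was -0.55 for Ctrl minus SBMO and 0.11 for Ctrl minus SHMO. The other called members were vgf, the appetite-stimulating NPY, PMCH with pmchl, the stress hormone CRH, sst7, SCG3 and tac3a, with log2(FC) between 0.66 and 1.47. For this list, sst2 included, the 12 calls became 2 without SBMO pool 2 or SHMO pool 1, 3 without SHMO pool 3 and 4 without SBMO pool 1.

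Receptors and channels of synapses were called at few members. Of glutamate receptors, 0 of 42 genes tested were called by limma (4 at an unadjusted p under 0.05), with a median log2(FC) of 0.29. A positive log2(FC) was found for 41 of the 42, but these genes are not independent replicates. Without SHMO pool 1 the median was 0.17. The median log2 difference of the list from the mean of the injected pools was -0.497 in SHMO pool 1. It was higher in SHMO pool 2 (0.043) than in SBMO pool 3 (-0.015), so the groups overlapped. GRIN1, the shared subunit of NMDA receptors, had 124, 115 and 81.2 TPM in the SBMO pools, against 54.4, 84.7 and 86.6 TPM in the SHMO pools and 66.4, 56.6 and 32.4 TPM in the Ctrl pools for ENSDARG00000025728 (log2(FC) = 0.60 ± 0.29, adjusted p = 0.255), and its second copy (ENSDARG00000027828) had a log2(FC) of 0.41. Its SHMO pools 2 and 3 overlapped with the SBMO pools, and SHMO pool 1 was lower. Of GABA and glycine signaling genes, 1 of 47 genes tested was higher and 1 was lower (median log2(FC) 0.028): the glycine receptor glra4b (log2(FC) = 1.81 ± 0.27, adjusted p = 0.00751) and the GABA carrier slc6a11a (-0.91). With 1 pool left out, slc6a11a lost its call in 7 of the 9 fits and glra4b in 0. Of voltage-gated calcium and sodium channels, 3 of 56 genes tested were higher and 0 were lower (median log2(FC) 0.17). These were cacna2d4a (log2(FC) = 1.47 ± 0.19, adjusted p = 0.00450) and its relative CACNA2D4 (1.20), calcium channel subunits of photoreceptor synapses, and CACNG5 (ENSDARG00000003326, log2(FC) = 1.69 ± 0.24, adjusted p = 0.00648). Of potassium channels, 2 of 83 genes tested were higher and 2 were lower (median log2(FC) -0.013), with the photoreceptor subunit KCNV2 (ENSDARG00000062906, 1.00) and kcna6a (1.09) higher and the inward rectifier KCNJ2 (-1.67) lower. For the calcium and sodium channels the 3 calls changed by no more than 1.5 times when any pool was left out, and for the potassium channels the 4 calls became 0 without SBMO pool 2 or SHMO pool 1, 1 without SHMO pool 3 and 2 without SHMO pool 2, Ctrl pool 1 or Ctrl pool 2.

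The lists of vesicle release, synaptic scaffolds, cholinergic genes, neurotrophins and myelin held 0 or 1 call each. Of SNAREs and vesicle release genes, 1 of 77 genes tested was higher and 0 were lower (median log2(FC) 0.12), vamp1b (0.67). Of neurexins, neuroligins and postsynaptic scaffolds, 0 of 56 genes tested were called by limma (3 at an unadjusted p under 0.05), with a median log2(FC) of 0.15, and camk2g1 and camk2d2 had log2(FC) of 0.24 and 0.23. Of cholinergic genes, 1 of 29 genes tested was lower and 0 were higher (median log2(FC) 0.18), the muscle receptor subunit CHRNE (log2(FC) = -1.003 ± 0.20, adjusted p = 0.0250). Of neurotrophins and receptors, 1 of 11 genes tested was higher and 0 were lower (median log2(FC) -0.0072): BDNF, which supports neurons and synapses, had 28.9, 37.5 and 31.1 TPM in the SBMO pools, against 15.5, 19.6 and 20.9 TPM in the SHMO pools and 19.4, 15.5 and 17.6 TPM in the Ctrl pools (log2(FC) = 0.89 ± 0.17, adjusted p = 0.0234). Of the 9 fits with 1 pool left out, vamp1b lost its call in 8, CHRNE in 4 and BDNF in 3. Of myelin and oligodendrocyte genes, 0 of 22 genes tested were called by limma (9 at an unadjusted p under 0.05), with a median log2(FC) of 0.19. Both copies of the neuronal membrane protein GPM6A were just outside the threshold, at 0.56 (adjusted p = 0.0552) and 0.57 (adjusted p = 0.0600). Of hox cluster genes, which mark the body axis, 0 of 44 genes tested were called by limma (0 at an unadjusted p under 0.05), with a median log2(FC) of 0.12, and HOXA3 and hoxc3a had log2(FC) of 0.13 and 0.15.

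Immediate early genes, which respond within minutes to neuronal activity or handling, leaned on SBMO pool 3. In this list 4 of 36 genes tested were higher and 0 were lower (median log2(FC) 0.58). JUNB (ENSDARG00000104773), a subunit of the AP-1 factor, had 33.96, 25.4 and 134 TPM in the SBMO pools, against 8.5, 9.91 and 3.06 TPM in the SHMO pools and 82.8, 31.99 and 45.3 TPM in the Ctrl pools (log2(FC) = 3.00 ± 0.60, adjusted p = 0.0251). SBMO pool 3 was far above the other SBMO pools. The median of the list was 0.17 without that pool, against 0.58 with it. The factors klf2a (log2(FC) = 1.77 ± 0.28, adjusted p = 0.0105), NR4A3 (log2(FC) = 1.73 ± 0.29, adjusted p = 0.0121) and IER5 (0.77) were the other called members. For this list the 4 calls became 2 without SBMO pool 2 or SHMO pool 1.

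Genes of the eye were higher in part. Of genes of rod and cone phototransduction, 10 of 63 genes tested were higher and 2 were lower (median log2(FC) 0.41). GNGT2 (ENSDARG00000010680), the gamma subunit of cone transducin, had 213, 149 and 159 TPM in the SBMO pools, against 55.04, 58.5 and 72.4 TPM in the SHMO pools and 191, 189 and 210.2 TPM in the Ctrl pools (log2(FC) = 1.56 ± 0.16, adjusted p = 0.00192). PDE6H, an inhibitory subunit of the cone phosphodiesterase, had 9.1, 9.97 and 8.5 TPM in the SBMO pools, against 3.53, 3.73 and 3.45 TPM in the SHMO pools and 4.29, 4.86 and 5.16 TPM in the Ctrl pools (log2(FC) = 1.42 ± 0.16, adjusted p = 0.00266). The red cone opsin opn1lw1 had 3.63, 3.5 and 3.8 TPM in the SBMO pools, against 1.03, 1.26 and 1.37 TPM in the SHMO pools and 1.99, 1.66 and 1.77 TPM in the Ctrl pools (log2(FC) = 1.59 ± 0.19, adjusted p = 0.00276). In these 3 genes no SHMO pool came within 2-fold of the lowest SBMO pool. GRK7 (ENSDARG00000055534), a kinase that shuts off cone opsins, was lower (log2(FC) = -1.17 ± 0.17, adjusted p = 0.00732). The red opsins opn1lw1 and opn1lw2 are near-identical copies, so their reads may have been shared. The summed TPM of 10 photoreceptor markers, 2 of them called higher, overlapped between groups. It was 3026 to 3382 TPM in the SBMO pools, against 2515 to 3495 TPM in the SHMO pools and 2551 to 3581 TPM in the Ctrl pools. Of lens crystallins and related lens genes, 5 of 57 genes tested were higher and 1 was lower (median log2(FC) 0.31): crygm2b (log2(FC) = 1.45 ± 0.22, adjusted p = 0.00892), crygm2f (1.13) and crygm2c (1.49) were among those higher, and the lens water channel MIP (ENSDARG00000013963) was lower (-0.83). The gamma crystallins form a family of close copies. For phototransduction the 12 calls became 4 without SBMO pool 2 or SHMO pool 1 and 5 without SHMO pool 3, and for the lens the 6 calls became 1 without SBMO pool 1, SBMO pool 2 or SHMO pool 3, 2 without SHMO pool 1, 3 without Ctrl pool 2 and 15 without SBMO pool 3.

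Structural genes of muscle were not called. Of sarcomere genes, 0 of 96 genes tested were called by limma (15 at an unadjusted p under 0.05), with a median log2(FC) of -0.10. The parvalbumins pvalb2 and pvalb1, calcium buffers of fast muscle, had log2(FC) of 0.08 and 0.07. In the list of myosin chaperones and muscle assembly, 3 of 58 genes tested were higher and 5 were lower (median log2(FC) -0.12). The lower genes were hsp90aa1.1, UNC45B, HSP90AA1 and SMYD1, given above, and the muscle determination factor MYOD1 (-0.74). For this list the 8 calls became 1 without SBMO pool 2, 3 without SHMO pool 1, SHMO pool 2 or SHMO pool 3 and 5 without Ctrl pool 1 or Ctrl pool 2.

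Some matrix genes, 11.4% of their list, were lower in SBMO larvae. Of collagens and matrix genes, 1 of 79 genes tested was higher and 9 were lower (median log2(FC) -0.48). The gene col24a1 had 8.79, 7.36 and 7.97 TPM in the SBMO pools, against 15.9, 13.3 and 14.4 TPM in the SHMO pools and 10.3, 9.47 and 8.47 TPM in the Ctrl pools (log2(FC) = -0.76 ± 0.14, adjusted p = 0.0156), the epidermal anchor col17a1a had a log2(FC) of -0.96, the cartilage collagen COL2A1 (ENSDARG00000011407) had -0.69 (47.9, 47.6 and 58.4 TPM in the SBMO pools, against 98.01, 75.6 and 90.7 TPM in the SHMO pools and 76.8, 67.3 and 66.95 TPM in the Ctrl pools), and the inhibitor of matrix proteases TIMP2 (ENSDARG00000061226) was higher (0.75). Among matrix genes the 10 calls became 0 without SBMO pool 2, SHMO pool 1 or SHMO pool 3, 4 without Ctrl pool 2 and 6 without SBMO pool 1 or Ctrl pool 1. The 8 cartilage markers, of which 1 was called lower, include COL2A1, so their sum is not separate from these genes. It was 221 to 317 TPM in the SBMO pools, against 378 to 535 TPM in the SHMO pools. The Ctrl pools had 388 to 435 TPM, and the part of cartilage cells was not tested. The skin lists are given beside the 1.85% higher and 2.75% lower of all genes. Of keratins and claudins, 1 of 63 genes tested was higher and 2 were lower (median log2(FC) -0.033): cldn15lb (-1.30) and cldn8.2 (-1.04) were lower, and icn2 (1.00), an epidermal calcium-binding protein, was higher. Of ionocyte genes, 1 of 39 genes tested was lower and 0 were higher (median log2(FC) -0.23), the phosphate carrier slc34a2b (-0.69). Of the 9 fits with 1 pool left out, slc34a2b lost its call in all 9, icn2 in 5, cldn8.2 in 4 and cldn15lb in 2.

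Genes of myeloid cells and of the interferon response held 1 call in each direction. These were 2.04% of the myeloid list and 4.35% of the interferon list, beside 1.85% higher and 2.75% lower of all genes. Of myeloid cell and inflammation genes, 1 of 49 genes tested was higher and 1 was lower (median log2(FC) -0.21): the macrophage perforin MPEG1 (ENSDARG00000043093) had 1.83, 1.36 and 1.52 TPM in the SBMO pools, against 6.53, 4.16 and 7.35 TPM in the SHMO pools and 2.65, 1.77 and 3.7 TPM in the Ctrl pools (log2(FC) = -1.76 ± 0.28, adjusted p = 0.0105), and the chemokine ccl44 was higher (0.75). Of interferon response genes, 1 of 23 genes tested was higher and 1 was lower (median log2(FC) 0.079): mhc1lia (log2(FC) = 2.42 ± 0.35, adjusted p = 0.00705) and mhc1lca (-1.48), both class I histocompatibility genes. Such genes have close copies, so their reads may have been shared. With 1 pool left out, ccl44 lost its call in 7, mhc1lca in 3, MPEG1 in 1 and mhc1lia in 0 of the 9 fits.

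Genes that handle sialic acid, the sugar both mixtures carried, held 0 or 1 call in each list, a share to be read beside the 4.6% of all genes. Of sialic acid synthesis, transport and sialidase genes, 0 of 15 genes tested were called by limma (2 at an unadjusted p under 0.05), with a median log2(FC) of -0.085. NANS (ENSDARG00000045620), which makes sialic acid phosphate, had 17.6, 11.7 and 19 TPM in the SBMO pools, against 30.6, 27.6 and 21.2 TPM in the SHMO pools and 18.3, 17.4 and 21.2 TPM in the Ctrl pools, with SBMO pools below SHMO pools but an adjusted p of 0.0872 (log2(FC) = -0.64). CMAS, which activates sialic acid, had 21.4, 24.4 and 20.96 TPM in the SBMO pools, against 21.7, 24.2 and 23.8 TPM in the SHMO pools and 20.9, 20.2 and 26.7 TPM in the Ctrl pools, and its groups overlapped. Of sialyltransferases, 1 of 21 genes tested was lower and 0 were higher (median log2(FC) 0.031), st3gal7 (log2(FC) = -1.68 ± 0.39, adjusted p = 0.0392). In the list of galactosyl- and fucosyltransferases, which also held related glycosyltransferases, 1 of 41 genes tested was lower and 0 were higher (median log2(FC) -0.074). The called gene was such a relative, b3gnt2l (-1.41). Of galectins and siglecs, which bind galactose and sialic acid, 1 of 15 genes tested was lower and 0 were higher (median log2(FC) -0.14), lgals4 (log2(FC) = -1.72 ± 0.35, adjusted p = 0.0264). These calls were unstable: b3gnt2l lost its call in 8, st3gal7 in 7 and lgals4 in 5 of the 9 fits with 1 pool left out.

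**Figure D5:**
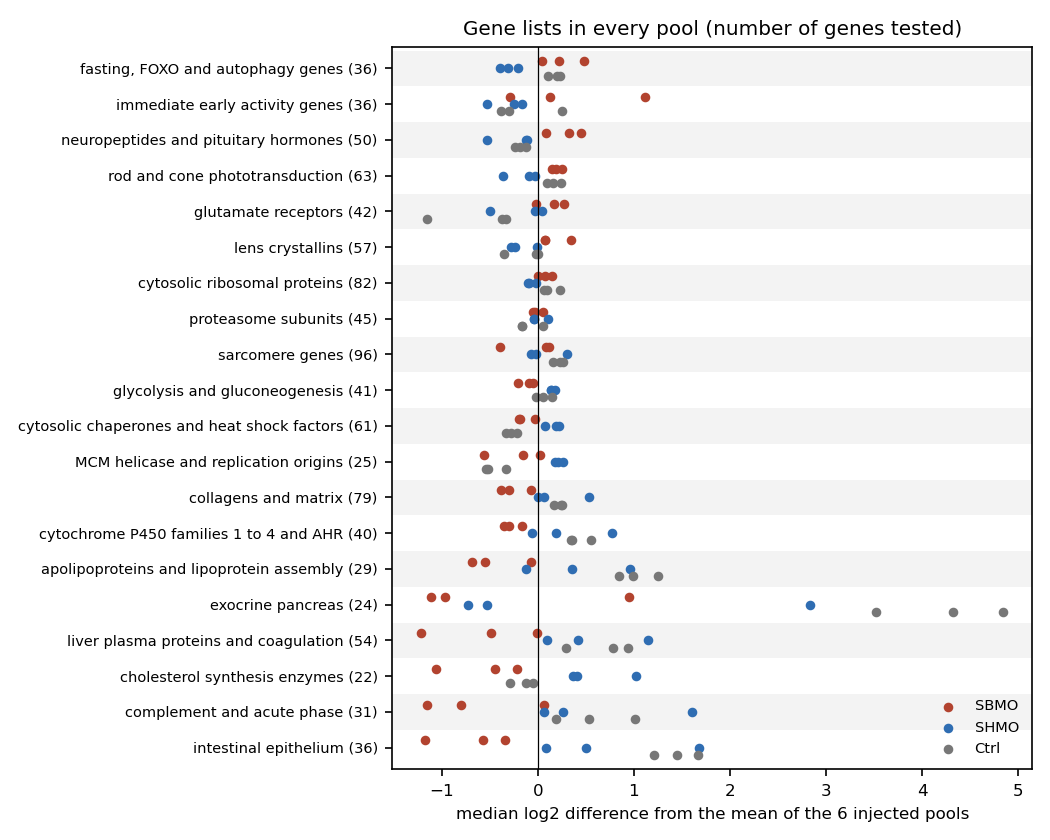
Median log2 difference of 20 gene lists from the mean of the 6 injected pools (horizontal axis) in each SBMO, SHMO and Ctrl pool, with 1 point a pool. The fasting list lies to the right in all 3 SBMO pools and to the left in all 3 SHMO pools, the cholesterol and intestinal lists do the opposite, and SHMO pool 1 is the farthest right of the SHMO pools for the liver, intestine, complement and exocrine pancreas lists.

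Some of the largest differences belonged to genes outside these lists or with no described role here. Among the rises, si:ch211-133l5.5 had 29.1, 30.8 and 16.4 TPM in the SBMO pools, against 4.14, 3.88 and 5.31 TPM in the SHMO pools and 16.1, 15.7 and 17.2 TPM in the Ctrl pools (log2(FC) = 2.53 ± 0.25, adjusted p = 0.00176). The gene si:dkey-56e3.2 had 6.62, 12.4 and 6.52 TPM in the SBMO pools, against 1.06, 0.64 and 1.18 TPM in the SHMO pools and 3.53, 2.89 and 2.8 TPM in the Ctrl pools (log2(FC) = 3.07 ± 0.31, adjusted p = 0.00183), and the protocadherin pcdh1g18, an adhesion protein of neurons, had 10.8, 9.07 and 5.13 TPM in the SBMO pools, against 1.77, 1.08 and 1.29 TPM in the SHMO pools and 5.25, 5.42 and 4.84 TPM in the Ctrl pools (log2(FC) = 2.55 ± 0.28, adjusted p = 0.00266). In all 3 genes every SHMO pool was below every SBMO and Ctrl pool. ENSDARG00000100986, which has no symbol, had 8.17, 7.4 and 2.96 TPM in the SBMO pools, against 0.58, 0.17 and 0.06 TPM in the SHMO pools and 8.07, 7.8 and 6 TPM in the Ctrl pools (log2(FC) = 4.29 ± 0.51, adjusted p = 0.00301), and zgc:153846 had a log2(FC) of 2.48. ENSDARG00000100986 passed the filter only through its SBMO pools, and its log2(FC) lay between 2.47 and 4.94 under the alternatives.

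Among the falls, si:ch211-132b12.7 had 1.2, 1.67 and 4.13 TPM in the SBMO pools, against 38.1, 49.3 and 54.7 TPM in the SHMO pools and 3.42, 3.37 and 3.19 TPM in the Ctrl pools (log2(FC) = -4.38 ± 0.36, adjusted p = 0.00104). The SBMO pools of this gene were near the Ctrl pools and all more than 9-fold below the lowest SHMO pool. The vitamin B12 carrier tcnba had 17.8, 6.81 and 22.2 TPM in the SBMO pools, against 216, 125 and 124 TPM in the SHMO pools and 33.1, 51.1 and 75.4 TPM in the Ctrl pools (log2(FC) = -3.33 ± 0.43, adjusted p = 0.00450). The gene si:dkey-18a10.3 had 0.07, 0.03 and 1.22 TPM in the SBMO pools, against 15.97, 11.3 and 10.9 TPM in the SHMO pools and 1.59, 1.42 and 2.04 TPM in the Ctrl pools (log2(FC) = -5.30 ± 0.70, adjusted p = 0.00474). Here the SHMO pools were far above both other groups, and the Ctrl pools were above the SBMO pools. This gene passed the filter only through its SHMO pools, and its log2(FC) lay between -6.35 and -3.28 under the alternatives. The genes zgc:153932 (-3.07) and ENSDARG00000069381 (-3.70) completed the largest falls with a fold. A copy of the small nuclear RNA U2 (ENSDARG00000111709) was listed at 0 in the 3 SBMO pools, against 4.46, 6.62 and 6.66 TPM in the SHMO pools and 0.59, 6.96 and 0 TPM in the Ctrl pools. Small RNAs are hardly captured by libraries selected for poly(A), and of the 32 small RNA genes tested 0 were higher and 2 lower.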

How the data were processed

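Total RNA of pooled whole larvae was made into poly(A)-selected, stranded libraries, and the authors trimmed reads with Scythe and Sickle and aligned them with STAR to GRCz11. The submitters' processing notes also name RSEM, while the annotation release is not given in the sources used here. The deposited table holds TPM of 32520 Ensembl genes, written with 2 decimals, in all 9 pools, and no counts or comparisons of the authors. The authors' own tests used DESeq2, which needs counts and was not run here. Because TPM is a share of each library, abundant genes move all others, and reads per gene, counting intervals and detection limits are unknown. The fragment totals that the authors report were not used.

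TPM were divided by median-ratio factors (0.918 to 1.07) and taken as log2(value + 0.1). Genes averaging 1 TPM or more across the injected pools were fitted with limma 3.58.1 (R 4.3.3) in a model of 3 groups over all 9 pools, with a trended prior (residual df 6, prior df 4.13), and tested for SBMO minus SHMO, two-sided. A gene could pass this filter through the pools of 1 group alone. A call needed an adjusted p up to 0.05 and an absolute log2(FC) from 0.58 upward. With 3 pools against 3, an exact permutation test could not go below 0.1, so none was used. The fit was tested on simulated data. Python 3.11.15, pandas 2.3.3 and matplotlib 3.10.9 were used for sums and plots.

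Symbols were given by the reference table for 29201 of the 32520 IDs, partly as human symbols, and an ID is printed where copies share one. The 62 gene lists were matched by symbol. The members and lists were chosen with earlier results of these data known. Genes were named by rule: the 12 largest rises and 12 largest falls among called genes whose pools did not overlap and whose higher mean was at least 5 TPM, and in each list up to 3 called genes by adjusted p with 1 of the opposite direction, or the 2 most abundant genes of a list without calls. A few of the genes so picked are not reported here. Other called members were listed to complete a group, and the genes of the closing observations were chosen after their values were seen. Alternatives, 23 in all, changed the pools, replicate block, scaling, pseudocount, filter, prior or threshold. No sequences or coordinates were used here.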

Additional observations from a re-analysis of the deposited data

How the results depend on the processing

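The 862 calls (347 higher and 515 lower in SBMO larvae) depended on the pools in the model, on the threshold and on the block. With the 6 injected pools alone 286 genes were called (134 higher and 152 lower). With 1 pool left out the calls ranged from 193 to 1287 (90 to 522 higher, 103 to 765 lower). An adjusted p of at most 0.01 gave 162 genes (83 higher and 79 lower), an absolute log2(FC) from 1 upward left 195 higher genes, and a filter at a mean of 5 TPM left 317 lower genes of 11609 tested. All other settings of scaling, pseudocount, filter and prior gave 658 to 904 calls. Of the 144 called genes picked by the naming rule, 70 lost their call with the 6 injected pools alone and 23 with no filter. Without a trended prior 19 lost it, and at most 10 did under each other setting of scaling, pseudocount, filter and prior. With replicate numbers as a block, 30 of the 144 lost their call. With that block over the 6 injected pools alone, 136 of the 144 lost it. No direction turned. Of 61 list medians, 14 had another sign without 1 of the pools, 4 without further scaling and 2 after quantile normalization. The cause of these shifts was not tested. The depth that limits calls of low genes is unknown from TPM.

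Replicate numbers were also tried as a block. Deviations from the group means of same-numbered SBMO and SHMO pools correlated at -0.168, 0.156 and -0.166 over genes, and not every pool correlated best with its own number. Such deviations cancel out within each group of 3 pools. These values therefore cannot tell whether same-numbered pools shared a clutch or batch. The replicate block gave 600 calls over 9 pools (228 higher and 372 lower) and 9 calls over the 6 injected pools (3 higher and 6 lower).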

Other observations

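Several genes were picked after their values were seen, so their number says nothing of their pathways. Most of those given were called, and other members of their pathways are not listed. Whether their calls held with 1 pool left out is not given here. CYP7A1, the rate-limiting enzyme of bile acid synthesis, had 2.95, 1.09 and 2.52 TPM in the SBMO pools, against 14.1, 6 and 6.23 TPM in the SHMO pools and 22.99, 20.1 and 26.1 TPM in the Ctrl pools (log2(FC) = -1.87 ± 0.37, adjusted p = 0.0239, limma). The SBMO pools were the lowest, and the Ctrl pools the highest. CYP8B1, which makes cholic acid precursors in mammals, had a log2(FC) of -2.38, the bile acid receptor NR1H4 -1.32, the gut hormone FGF19 -1.77, and the liver and gut transcription factor HNF4A -1.47, and all were called. These genes are made in liver or intestine. The marker sums of these organs, which hold genes of the lists above, were lower in SBMO pools as well, and the part of cell composition was not tested.

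The dioxygenase ido1, an enzyme of tryptophan breakdown picked in the same way, had 0.11, 0.17 and 1.15 TPM in the SBMO pools, against 6.93, 3.2 and 3.88 TPM in the SHMO pools and 1.54, 1.3 and 2.01 TPM in the Ctrl pools (log2(FC) = -3.38 ± 0.59, adjusted p = 0.0145, limma), with the Ctrl pools between the groups. KMO (-1.70), HAAO (-2.46), ACMSD (-1.63) and TDO2 (-1.46), which act in the same kynurenine pathway, were called lower.

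The methionine synthase MTR had 1.64, 0.89 and 1.96 TPM in the SBMO pools, against 10.5, 6.98 and 5.91 TPM in the SHMO pools and 4.08, 3.22 and 2.84 TPM in the Ctrl pools (log2(FC) = -2.25 ± 0.28, adjusted p = 0.00372, limma). MAT1A (-1.66) and 1 copy of MAT2A (ENSDARG00000037121, -2.31), which make S-adenosylmethionine, and the creatine enzyme GATM (-1.57) were called lower, while the abundant second copy of MAT2A (ENSDARG00000040334) had -0.20 and was not called. The cortisol-inactivating enzyme HSD11B2 had 15.5, 10.5 and 10.6 TPM in the SBMO pools, against 5.39, 3.43 and 3.69 TPM in the SHMO pools and 18.2, 16.3 and 24.5 TPM in the Ctrl pools and was higher in SBMO larvae (log2(FC) = 1.61 ± 0.23, adjusted p = 0.00636, limma), whereas the glucocorticoid receptor NR3C1 had a log2(FC) of 0.12 and was not called.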
